A study of Rattus norvegicus with 24 samples.

Results

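The genes described here encode heat shock chaperones and the transcription factor that switches them on. They are Hspa4l and Hsph1 of the HSP110 family, Hspa1b and Hspa8 of the HSP70 family, Hsp90aa1, the small heat shock proteins Hspb1 and Cryab, the J-domain protein Dnajb1, the mitochondrial chaperonin Hspd1, and Hsf1. They were chosen by symbol, with earlier results of these data known. They are 10 of the 36856 genes in each of 3 deposited count tables. All 10 passed the filter on low counts in every comparison. RNA was sequenced from 24 pieces of tissue of Sprague-Dawley rats weighing 120 to 200 g, 4 in each of 6 groups. In the salt experiment, rats ate a synthetic diet with 0.4% Na or with 0.01 to 0.02% Na for 7 days, and libraries were made from the kidney inner medulla (the papilla) and from a piece of heart ventricle, giving the groups kidney high salt, kidney low salt, heart high salt and heart low salt. The 0.4% diet is the control diet of the protocol and is named high salt here after the sample titles. In the aldosterone experiment, rats on the 0.4% diet carried a minipump that released 12 µg of aldosterone per day (aldosterone) or were controls (control), and only the inner medulla was sequenced. The comparisons ask what each treatment does within a tissue, whether the salt response differs between tissues or from the aldosterone response, and how the tissues differ.

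Heat shock proteins bind unfolded or partly folded proteins, keep them from clumping and help them reach their folded state. HSP70 proteins do so in cycles of ATP use that J-domain proteins start and HSP110 proteins, which exchange the nucleotide, reset, while HSP90 acts later on clients such as steroid hormone receptors, and small heat shock proteins hold unfolded clients without ATP. Under stress HSF1 binds heat shock elements, repeats of the unit nGAAn in alternating orientation, in front of these genes. In the renal inner medulla, where salt and urea concentrate, several heat shock genes and the osmolyte genes driven by NFAT5 are known to respond to tonicity, and Hspa4l was described there as an osmotic stress protein.

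The promoters of 4 of the genes are shown because Hspa4l gave the largest difference between diets below and the other 3 hold every 3-unit heat shock element found in the promoters at hand for 6 of the 10 genes. RefSeq promoters (GRCr8), 250 bases before and 50 after each start, were at hand for 6 of the 10 genes: Hspa4l, Hsph1, Hspa8, Hspb1, Dnajb1 and Hspd1. The 250 bases before the start are printed 5′ to 3′ on the strand of the gene, from chr12:10427118-10427367 (plus strand) for Hsph1, chr9:64084038-64084287 (minus strand) for Hspd1, chr8:50080264-50080513 (plus strand) for Hspa8 and chr2:125668096-125668345 (plus strand) for Hspa4l, with every match to a 3-unit heat shock element in capitals.
Hsph1: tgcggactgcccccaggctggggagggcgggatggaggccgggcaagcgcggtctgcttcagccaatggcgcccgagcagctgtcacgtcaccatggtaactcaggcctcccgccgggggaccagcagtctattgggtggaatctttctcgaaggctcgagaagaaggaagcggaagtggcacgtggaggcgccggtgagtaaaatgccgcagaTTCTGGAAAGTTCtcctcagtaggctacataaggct
Hspd1: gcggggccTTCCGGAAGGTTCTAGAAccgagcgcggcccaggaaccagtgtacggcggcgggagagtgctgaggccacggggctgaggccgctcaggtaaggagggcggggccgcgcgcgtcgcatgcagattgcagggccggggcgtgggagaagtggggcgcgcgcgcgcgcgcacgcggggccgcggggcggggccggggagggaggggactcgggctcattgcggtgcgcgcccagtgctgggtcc
Hspa8: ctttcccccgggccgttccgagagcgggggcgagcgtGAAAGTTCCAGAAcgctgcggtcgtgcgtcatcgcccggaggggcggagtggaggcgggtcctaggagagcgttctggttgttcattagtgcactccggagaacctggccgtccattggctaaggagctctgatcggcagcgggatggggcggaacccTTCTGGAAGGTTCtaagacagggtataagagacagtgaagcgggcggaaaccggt
Hspa4l: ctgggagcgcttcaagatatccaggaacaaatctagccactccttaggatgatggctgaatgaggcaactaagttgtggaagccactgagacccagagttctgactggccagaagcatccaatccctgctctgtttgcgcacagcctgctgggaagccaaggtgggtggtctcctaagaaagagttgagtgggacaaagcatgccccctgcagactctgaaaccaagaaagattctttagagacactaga
The 3-unit element was searched as GAANNTTCNNGAA or TTCNNGAANNTTC, which covers both strands, and overlapping matches were merged in the capitals. It occurs in 0.798% of 33469 RefSeq promoters of the same length and in 3 of the 6 chaperone promoters, those of Hsph1 (36 to 24 bases before the start), Hspa8 (213 to 201 and 55 to 43 bases before) and Hspd1 (242 to 225 bases before, as overlapping matches). Hspa4l has none in this window and 1 shorter match, GAANNTTC or TTCNNGAA, 38 to 45 bases after the start. That 2-unit form is found in 15.9% of all promoters and in all 6 chaperone promoters, but not in that of Hspa1a, the near-identical copy of Hspa1b. The tonicity element bound by NFAT5 was matched in 5.98% of all promoters and in 2 of the 6, at 33 to 23 bases before the start of Hsph1, overlapping its heat shock element, and at 130 to 120 bases before the start of Hspb1. The promoters of Hspa1a and of Hspe1, the gene next to Hspd1, were searched too. Hspa1a had no match to any of these elements. Hspe1 had overlapping 3-unit matches, 65 to 53 and 60 to 48 bases before its start, and a tonicity match 33 to 43 bases after it. A match is a string of letters and was not tested as a binding site.

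Each library held 24299423 to 38318764 counts, and levels are given as CPM, a gene's counts scaled to a common library total. CPM compares one gene between libraries and not one gene with another, since transcript lengths were not used. The tissues matched their labels: 6 principal cell markers summed to 8445 to 13765 CPM in the 16 kidney libraries, and 7 cardiomyocyte markers to 61840 to 81650 CPM in the 8 heart libraries against at most 5.64 CPM in kidney. Among heart libraries, high salt replicate 2 held the most principal cell and thick ascending limb transcripts, with sums of 40.7 and 105 CPM. In heart low salt these sums were at most 2.67 and 8.07 CPM. Proximal tubule markers were not limited to that library. Their sums were 0.323 to 43.8 CPM in heart high salt and 0.676 to 83.2 CPM in heart low salt, and at least 66.3 CPM in kidney. The labels call the rats female, and Xist lay between 234.4 and 451 CPM in all 8 libraries from rats given aldosterone or serving as their controls, whereas in the 16 libraries from the diet groups it was at most 0.0932 CPM and 4 Y-linked genes summed to 148 to 276 CPM (at most 0.32 CPM in the former). Pieces of tissue hold many cell types, so fewer cells of a type and less RNA per cell cannot be told apart in any value below.

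**Figure D1:**
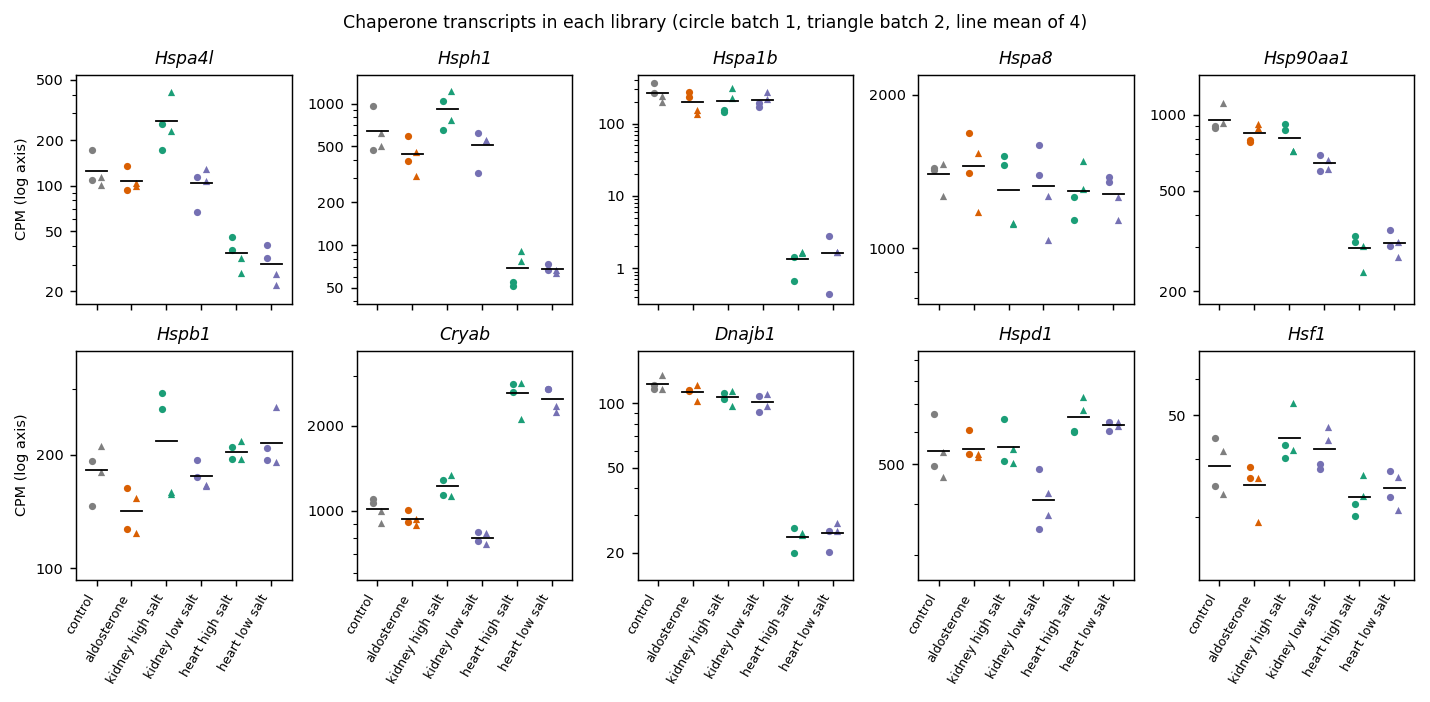
Level of each chaperone gene in all 24 libraries, in CPM on a log axis whose range differs between panels. Circles are batch 1, triangles batch 2, and the line is the mean of 4. Hspa4l and Cryab sit higher on high than on low salt in kidney, and Hspa1b, Hsph1, Hspa4l and Dnajb1 sit far lower in heart.

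In the kidney inner medulla, 2 of the 10 genes passed the test between diets, Hspa4l and Cryab, and both were lower on low salt. A further 3, Hsph1, Hsp90aa1 and Hspd1, were lower in every low-salt than in every high-salt library without passing. The remaining 5 had overlapping groups. Among all 18449 genes tested, 1.37% were called lower, beside 2 of the 10. Every low-salt library lay below every high-salt library for 5.92%, beside 5 of the 10. The 10 genes were chosen with earlier results of these data known. Such shares, here and below, are therefore context and not a test of the set. The test was edgeR's quasi-likelihood F test with batch as a term and Benjamini-Hochberg adjustment over all genes, with a threshold of 0.05.

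Hspa4l, an HSP110-type nucleotide exchange factor, read 172, 255, 417 and 230.2 CPM in the 4 high-salt libraries (replicates 1 to 4) and 66.5, 114, 108 and 128 CPM in the 4 low-salt libraries. Every low-salt library was below every high-salt one, and high-salt replicate 3 stood above the rest. The group means were 269 ± 105 and 104 ± 26.5 CPM (SD, n = 4 each), and the level was 2.58-fold lower on low salt (log2 fold change -1.37 ± 0.24 SE, edgeR adjusted p = 0.0366).

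Cryab, alpha B-crystallin, a small heat shock protein abundant in heart and in the renal medulla, read 1135, 1279.7, 1341 and 1127 CPM on high salt and 783, 839, 760.2 and 832 CPM on low salt. The groups were far apart and each was tight. The means were 1220.4 ± 107 and 804 ± 38.3 CPM (SD, n = 4 each), a 1.53-fold lower level on low salt (log2 -0.62 ± 0.09 SE, edgeR adjusted p = 0.0204). Hspb2, the small heat shock gene next to Cryab on the genome, averaged 35.0 ± 7.60 CPM on high and 32.6 ± 3.63 CPM on low salt (SD, n = 4 each), with overlapping groups (log2 -0.12 ± 0.15 SE, edgeR adjusted p = 0.727).

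Hsph1, the other HSP110 protein of the set, read 650.2, 1038, 1233 and 769 CPM on high salt and 325, 616, 539.8 and 556 CPM on low salt. The ranges of the groups were separate by a small gap, from 616 to 650.2 CPM. Its log2 fold change was -0.87 ± 0.24 SE (edgeR adjusted p = 0.0932), and the residual SD of its log2 level, 0.47, was higher than that of 95.4% of the genes tested in this table. Hspa4l was as variable, with a residual SD of 0.46 (95.2%), while that of Cryab, 0.12, was below the median over genes of 0.15.

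Hspd1, the chaperonin of the mitochondrial matrix, read 509.8, 644, 545 and 503 CPM on high salt and 348, 486, 426 and 377 CPM on low salt (log2 -0.44 ± 0.12 SE, edgeR adjusted p = 0.0971). Hspe1, its co-chaperonin, the next gene on the genome, averaged 107 ± 15.8 CPM and 99.4 ± 9.99 CPM (SD, n = 4 each) with overlapping groups (log2 -0.12 ± 0.07 SE, edgeR adjusted p = 0.368). Hsp90aa1, the inducible cytosolic HSP90, has 2 pseudogenes in the tables, which took up to 11.2% of their summed level, so that some of its reads may have been shared out. RefSeq names 16 pseudogenes of Hsp90aa1, 33 of Hspa8 and 20 of Hspd1, and those of Hspa8 and Hspd1 have no values here. Whether their reads were counted for these genes cannot be told. Hsp90aa1 read 868, 921, 719.5 and 721 CPM on high salt and 597, 694, 611 and 664 CPM on low salt (log2 -0.34 ± 0.09 SE, edgeR adjusted p = 0.0855). Its high-salt libraries of batch 1 lay above those of batch 2, and the difference between diets was -0.47 in batch 1 and -0.18 in batch 2 on the log2 scale.

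Hspb1, the small heat shock protein known as HSP27 in humans, read 291.5, 264, 157 and 159 CPM on high salt and 194, 175, 167 and 166 CPM on low salt. Its high-salt level split by batch, so that the log2 difference between diets was -0.59 in batch 1 and 0.07 in batch 2 (-0.27 ± 0.13 SE over both, edgeR adjusted p = 0.287). Hspa1b, the stress-inducible HSP70, split the other way on high salt, with 142 and 152 CPM in batch 1 and 309 and 228.6 CPM in batch 2, against 171, 194, 220.02 and 269 CPM on low salt (log2 0.07 ± 0.13 SE, edgeR adjusted p = 0.801). Its near-identical copy Hspa1a showed the same split, at 356, 408, 825 and 642 CPM on high salt and 398, 490.3, 581 and 682 CPM on low salt (log2 -0.01 ± 0.13 SE, edgeR adjusted p = 0.969). Short reads that fit both copies are shared out by estimation, and the 2 summed gave a log2 fold change of 0.01 ± 0.13 SE.

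Hspa8, the constitutive HSP70 of the cytosol, averaged 1303 ± 215 CPM on high salt and 1324 ± 231.8 CPM on low salt (SD, n = 4 each; log2 0.01 ± 0.09 SE). Dnajb1, the J-domain partner of inducible HSP70, averaged 107 ± 7.57 and 102 ± 9.30 CPM (log2 -0.09 ± 0.08 SE). Hsf1 averaged 44.6 ± 5.87 and 42.1 ± 4.32 CPM (log2 -0.10 ± 0.08 SE). For these 3 genes, 2 standard errors either side of the estimate reach no further than -0.17 and 0.19 for Hspa8, -0.25 and 0.07 for Dnajb1, and -0.26 and 0.06 for Hsf1, and none of these reaches the log2 fold change of Hspa4l.

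Both calls were lost in some fits that left out 1 library, and the calls over all genes fell in those fits too. Hspa4l stayed past the threshold in 3 of the 8 fits that left out 1 library and Cryab in 4 of 8, with log2 fold changes from -1.55 to -1.15 and from -0.66 to -0.56. Both were lost without high-salt replicate 2 (adjusted p = 0.103 and 0.0712), high-salt replicate 3 (0.0849 and 0.0626), low-salt replicate 3 (0.0990 and 0.0678) or low-salt replicate 4 (0.0877 and 0.0597), and Hspa4l also without high-salt replicate 1 (0.0545), all in edgeR. With the replicate number as a block neither was called (adjusted p = 0.0532 for Hspa4l and 0.0573 for Cryab), without a batch term Cryab alone was (Hspa4l 0.0554), and in either batch alone 0 of the 10 were. With DESeq2's Wald test 5 genes were called lower, Hspa4l, Cryab, Hsph1, Hsp90aa1 and Hspd1, the 5 whose groups do not overlap, beside 4.73% of all genes.

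**Figure D2:**
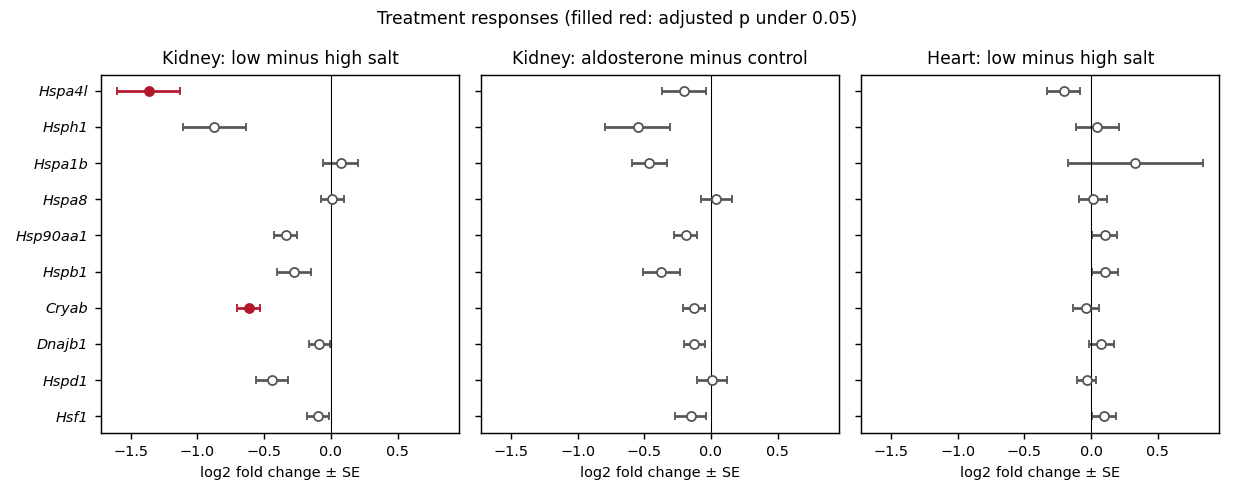
Log2 fold change with its standard error for each chaperone gene in the 3 treatment comparisons, 4 libraries against 4 in each. Filled red points passed the adjusted p threshold of 0.05: Hspa4l at -1.37 and Cryab at -0.62 in kidney, and none under aldosterone or in heart.

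Other chaperone genes were followed through 9 lists with 84 genes in all, of which 80 were tested in this comparison. Of these, 3 were called lower and 1 higher on low salt, and 67 of 80 had a log2 fold change below 0, with a median of -0.09, beside a median of -0.31 over the 10 genes and of -0.00 over all 18449 genes tested (9353 below 0). In the HSP70 and HSP110 list 1 of 8 was called lower, Hspa14, a ribosome-associated HSP70, at 82.6 ± 12.1 CPM on high and 58.0 ± 3.36 CPM on low salt (SD, n = 4 each; log2 -0.52 ± 0.11 SE, edgeR adjusted p = 0.0482).

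Among 13 tested HSP90 genes and co-chaperones, Cdc37, which loads kinases onto HSP90, was lower on low salt (260.1 ± 15.6 against 208 ± 3.02 CPM; log2 -0.34 ± 0.06 SE, edgeR adjusted p = 0.0374). Fkbp5, the glucocorticoid-induced immunophilin of steroid receptor complexes, was the 1 gene of the lists that was higher on low salt (35.7 ± 3.20 on high against 57.9 ± 9.63 CPM on low; log2 0.69 ± 0.12 SE, edgeR adjusted p = 0.0374). Bag1, a nucleotide exchange factor of HSP70, was lower (99.7 ± 5.34 against 78.0 ± 1.98 CPM; log2 -0.37 ± 0.05 SE, edgeR adjusted p = 0.0219). All 8 subunits of the chaperonin TRiC had a negative log2 fold change, with a median of -0.14 and none called. In the small heat shock, J-domain, mitochondrial and endoplasmic reticulum lists, and among heat shock factors and regulators, 0 genes were called, with medians between -0.17 and -0.05.

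A list of 5 tonicity genes was read beside the chaperones. Akr1b1, aldose reductase, which makes sorbitol, read 8339, 7525, 10562 and 9420.4 CPM on high salt and 1659, 3200.5, 2767 and 3204 CPM on low salt, a 3.34-fold lower level (log2 -1.74 ± 0.19 SE, edgeR adjusted p = 0.0163), although reads of the aldose reductase family may be shared out by estimation. Slc6a12, the betaine transporter, read 143, 253, 407 and 179 CPM against 52.5, 123, 64.6 and 93.0 CPM (log2 -1.55 ± 0.37 SE, edgeR adjusted p = 0.0697). Nfat5 itself was higher on low salt, at 479 ± 33.7 against 738 ± 33.9 CPM (log2 0.61 ± 0.08 SE, edgeR adjusted p = 0.0177). The other osmolyte transporters were not called and their groups overlapped: Slc5a3, which carries myo-inositol, averaged 44.7 ± 8.48 CPM on high and 32.6 ± 13.8 CPM on low salt (log2 -0.55 ± 0.23 SE, edgeR adjusted p = 0.241), and Slc6a6, which carries taurine, 88.6 ± 15.7 and 152 ± 33.9 CPM (log2 0.77 ± 0.18 SE, edgeR adjusted p = 0.0662). High-salt replicate 3 held the highest Hspa4l, Hsph1, Cryab, Hspa1b, Dnajb1 and Hsf1 of its group and the highest Akr1b1, Slc6a12 and Slc5a3. The same library held the lowest Hspb1, Hsp90aa1 and Slc6a6 of its group, and its Hspa8 and Hspd1 lay between the other libraries. Whether tonicity has a part in the chaperone values was not tested.

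Markers of other cells also varied between these libraries, and their part in the chaperone differences was not tested. The 6 erythroid markers were all positive on low salt with a median log2 of 1.17 and 0 called, and summed to 369 to 4214 CPM on high and 2149 to 4995 CPM on low salt. The 6 proximal tubule markers, which belong to the cortex, were all positive with a median of 0.78 and 0 called, at 66.3 to 373 and 121 to 510.4 CPM. The 5 urothelium markers had a median of -0.83 and 0 called, at 80.1 to 514 and 97.9 to 264 CPM. Of the 5 endothelial markers 4 were negative, with a median of -0.19, and they summed to 366 to 464 and 241 to 416 CPM. Emcn was the 1 marker of other cells that was called, at 145 ± 25.7 CPM on high and 87.0 ± 19.9 CPM on low salt (SD, n = 4 each; log2 -0.75 ± 0.12 SE, edgeR adjusted p = 0.0320). The 5 intercalated cell markers were all positive, with a median of 0.38 and 0 called, at 1023 to 1589 and 1145 to 2340 CPM. The smooth muscle markers had a median of -0.14 and 0 called over the 4 tested, and their sums did not overlap, at 44.0 to 48.4 and 32.5 to 42.9 CPM. The 6 principal cell markers summed to 10278 to 11562 CPM on high and 8445 to 12431 CPM on low salt. Medians of the thick ascending limb, fibroblast and leukocyte lists lay between -0.07 and 0.05.

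**Figure D3:**
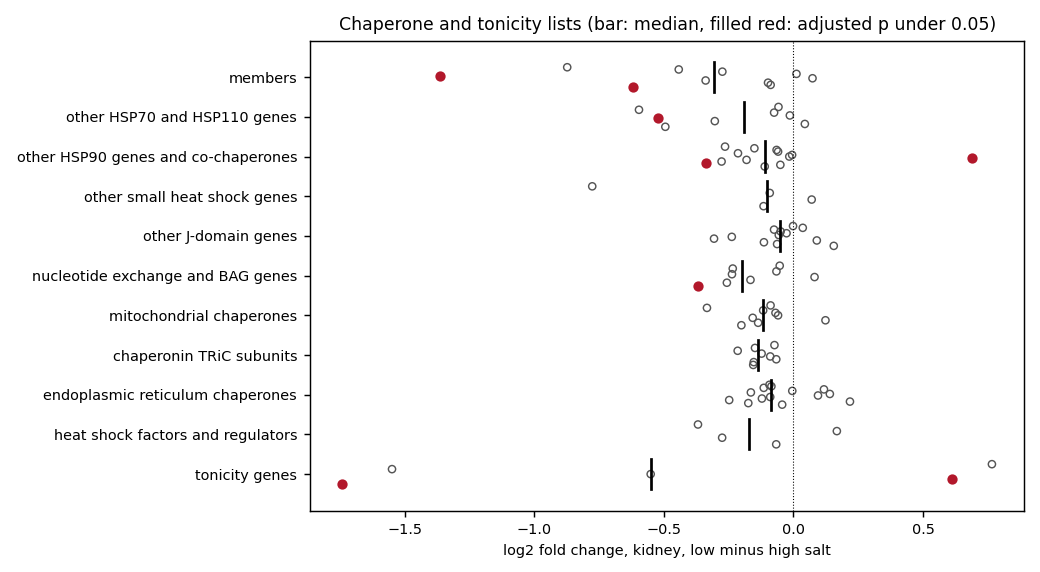
Log2 fold change, low minus high salt in kidney, of each tested gene in the 10 chaperones (members), the 9 other chaperone lists and the tonicity list. Bars are list medians and filled red points passed the adjusted p threshold of 0.05. Most points lie left of 0, few are filled, and the widest spread is in the tonicity list.

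Under aldosterone, 0 of the 10 genes passed the test in the inner medulla, and 0% of 17671 genes did so, with 1750 at an unadjusted p under 0.05 in edgeR. At that unadjusted threshold there were 2 of the 10, Hspa1b and Hspb1, beside 9.9% of all genes. Each of the 10 had overlapping groups, beside 5.37% of all genes without overlap in either direction. Hspa1b had the smallest p of the 10. It read 263, 366, 198 and 238 CPM in control and 275, 230.4, 135 and 155 CPM with aldosterone, lower on average in both batches (log2 -0.46 ± 0.13 SE, edgeR adjusted p = 0.305). Its adjusted p was 0.0498 with DESeq2's Wald test, which called it alone of the 10 and 0.419% of all genes lower, and between 0.0498 and 0.9005 over all alternatives. Hspa1a had a log2 fold change of -0.52 ± 0.19 SE (edgeR adjusted p = 0.425).

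Hsph1 read 467, 957, 499 and 619 CPM in control and 389.7, 594, 309 and 458 CPM with aldosterone (log2 -0.55 ± 0.24 SE, edgeR adjusted p = 0.509). The groups overlapped, with control replicate 2 far above the rest. Hspb1 read 147, 192, 212 and 180.1 CPM in control and 163, 127, 124 and 153 CPM with aldosterone (log2 -0.37 ± 0.14 SE, edgeR adjusted p = 0.427). Hsp90aa1, which holds the mineralocorticoid receptor ready for its ligand, averaged 955 ± 104 and 844 ± 68.6 CPM (log2 -0.19 ± 0.09 SE, edgeR adjusted p = 0.521).

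The 2 genes that passed on low salt had small differences here. Hspa4l read 109, 172, 114 and 101 CPM in control and 93.4, 135, 104 and 99.0 CPM with aldosterone (log2 -0.20 ± 0.17 SE, edgeR adjusted p = 0.724). Cryab read 1099, 1063, 1000.5 and 904 CPM in control and 1007, 912, 934 and 891 CPM with aldosterone (log2 -0.13 ± 0.08 SE, edgeR adjusted p = 0.658). The remaining 4 genes had log2 fold changes from -0.15 to 0.04. Hspd1 averaged 539 ± 87.9 and 546 ± 40.1 CPM and Hspa8 1399 ± 90.3 and 1451 ± 216 CPM (SD, n = 4 each).

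Of 80 other chaperone genes tested under aldosterone, 0 were called and 46 had a negative log2 fold change, with a median of -0.03. Hspb2 had the smallest p of the lists, at 32.4 ± 3.92 CPM in control and 25.5 ± 2.07 CPM with aldosterone and no overlap (log2 -0.36 ± 0.09 SE, edgeR adjusted p = 0.266), and Hspa1a followed. In the other direction were Trap1, the mitochondrial HSP90, at 89.3 ± 9.62 and 109 ± 9.23 CPM (log2 0.27 ± 0.10 SE, edgeR adjusted p = 0.427), and Dnajb5 at 7.03 ± 1.84 and 9.25 ± 0.635 CPM (log2 0.41 ± 0.16 SE, edgeR adjusted p = 0.445). All 9 mitochondrial chaperones were above 0 under aldosterone, with a median of 0.10, and Hspe1 among them averaged 104 ± 12.6 and 123 ± 11.3 CPM (log2 0.24 ± 0.11 SE, edgeR adjusted p = 0.539).

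Markers of other cells varied under aldosterone too, with 0 called by edgeR in every list, and their part in the chaperone values was not tested. Erythroid markers summed to 1033 to 1852 CPM in control and 1563 to 3699 CPM with aldosterone (5 of 6 positive, median log2 0.82). The 5 thick ascending limb markers were all positive with a median of 0.64, at 1107 to 2646 CPM in control and 2380 to 4677 CPM with aldosterone. All 4 tested fibroblast markers were positive, with a median of 0.98 and sums of 84.8 to 269.9 and 115 to 348 CPM. The 5 intercalated cell markers (median 0.28) and the 5 urothelium markers (median 0.50) were all positive as well, at 1342 to 2358 against 1783 to 2976 CPM and at 31.1 to 69.3 against 23.0 to 157 CPM. Smooth muscle markers had a median of 0.66, leukocyte markers of 0.47, proximal tubule markers of 0.17, endothelial markers of 0.02 and principal cell markers of -0.13.

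The difference between the salt and aldosterone responses was tested over the 16 kidney libraries of both experiments, which share no library. The 8 libraries of the aldosterone experiment carry Xist and the salt libraries Y-linked transcripts, as given above, so a difference between the treatments and one between the experiments or the sexes that these genes mark cannot be told apart. None of the 10 genes was called in edgeR, and 0.0528% of 18938 genes were. At an unadjusted p under 0.05 there were 4 of the 10, beside 13.1% of all genes, and DESeq2 called 2 with a more negative salt response, beside 1.96%. The salt response was more negative for Cryab by 0.47 ± 0.11 (log2, SE; edgeR adjusted p = 0.0877) and for Hspa4l by 1.15 ± 0.32 (adjusted p = 0.124), which DESeq2 called at 0.00210 and 0.0155. Hspa1b differed in the other direction, by 0.56 ± 0.20 (edgeR adjusted p = 0.248), and Hsph1 by -0.31 ± 0.37 (adjusted p = 0.779).

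In the heart ventricle, 0 of the 10 genes passed between diets and 0.0517% of 15473 genes did. All 10 had overlapping groups, beside 4.35% of all genes without overlap, and 0 of the 10 had an unadjusted p under 0.05, beside 10.6% of all genes. DESeq2 called 0 of the 10 and 1.96% of all genes. A count of 0 of 10 is near these shares and is no result about the chaperones. Hspa4l read 45.4, 37.4, 26.4 and 33.4 CPM on high salt and 40.6, 33.2, 26.1 and 22.2 CPM on low salt, with batch 1 above batch 2 in both groups (log2 -0.21 ± 0.12 SE, edgeR adjusted p = 0.588). Cryab read 2641, 2816, 2118 and 2838 CPM on high salt and 2695, 2691, 2227 and 2345 CPM on low salt (log2 -0.04 ± 0.10 SE, edgeR adjusted p = 0.919). Its interval of 2 standard errors was -0.23 to 0.16.

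Hspd1 read 598, 604, 678 and 729 CPM on high salt and 634, 601, 635 and 619 CPM on low salt (log2 -0.03 ± 0.07 SE, edgeR adjusted p = 0.900). Hsph1 differed in sign between the batches, with a log2 difference of 0.40 in batch 1 and -0.36 in batch 2 and means of 68.6 ± 18.6 and 67.7 ± 3.94 CPM. Hspa1b was counted rarely, with 11.4 to 77.8 expected counts per heart library, and its estimate, log2 0.33 ± 0.51 SE, is loose. The other 5 genes had log2 fold changes from 0.02 to 0.10, the highest that of Hspb1. Erythroid markers ranged in the heart libraries from 2242 to 34588 CPM on high and from 16871 to 54358 CPM on low salt, and the 5 fibroblast markers, all negative with a median log2 of -0.32 and 0 called, from 1811 to 2382 and from 1035 to 2321 CPM. Their part in the values was not tested.

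Of 82 other chaperone genes tested in heart, 0 were called, with a median of -0.01. The 2 with the smallest p in each direction were the J-domain genes Dnaja4 (288 ± 13.4 on high and 348 ± 31.8 CPM on low salt; log2 0.31 ± 0.08 SE, edgeR adjusted p = 0.271) and Dnajb2 (135 ± 5.25 and 154 ± 6.64 CPM; log2 0.22 ± 0.07 SE, adjusted p = 0.301), and Hspa12a (13.7 ± 0.356 and 10.9 ± 1.70 CPM; log2 -0.31 ± 0.09 SE, adjusted p = 0.294) and Dnajb11 (51.1 ± 8.83 and 41.5 ± 5.35 CPM; log2 -0.27 ± 0.08 SE, adjusted p = 0.301).

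The salt response was tested for a difference between tissues over 16 libraries. None of the 10 genes was called in edgeR, and 0.83% of 19408 genes were. At an unadjusted p under 0.05 there were 5 of the 10, beside 14.4% of all genes: Cryab (kidney minus heart response, log2 -0.58 ± 0.13 SE, adjusted p = 0.0629), Hspa4l (-1.15 ± 0.29, adjusted p = 0.0818), Hsp90aa1 (-0.43 ± 0.13, adjusted p = 0.136), Hsph1 (-0.91 ± 0.31, adjusted p = 0.195) and Hspd1 (-0.40 ± 0.15, adjusted p = 0.224). DESeq2 called Cryab (adjusted p = 0.00154), Hspa4l (0.00427) and Hsp90aa1 (0.0232), all with a more negative response in kidney, as it did for 2.49% of all genes. In edgeR, Cryab was called without heart high-salt replicate 4 (adjusted p = 0.0379) and Hspa4l without kidney low-salt replicate 2 (adjusted p = 0.0466).

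The largest differences lay between the tissues. On high salt, Hspa1b, Hsph1, Hspa4l, Dnajb1 and Hsp90aa1 were higher in kidney than in heart and Cryab and Hspd1 lower, under each scaling tried, while the directions of Hsf1 and Hspb1 depend on the scaling and Hspa8 was called under TMM, upper quartile and DESeq2 scaling but not under library totals. All 10 were called with TMM scaling, 5 higher and 5 lower in kidney, beside 42.9% and 37% of 19408 genes. On low salt 4 were higher and 5 lower, beside 43.6% and 37.2%. A share this near the background makes the number of calls no result about the chaperones, and sizes are given instead.

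TMM gave kidney libraries factors of 1.35 to 1.40 and heart libraries 0.692 to 0.750, a shift of 0.93 on the log2 scale, and the 20 most abundant genes took 18.3 to 21.4% of counts in heart and 6.02 to 6.88% in kidney. With library totals alone, 6 of the 10 were called higher and 2 lower in kidney on high salt, and over all genes the split moved from 8325 higher and 7189 lower to 12772 higher and 4055 lower. For the 10 genes every tissue difference on high salt is therefore given under TMM and then under library totals. Those on low salt are given so for Hspa4l, Cryab and Hsp90aa1.

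Hspa1b read 142, 152, 309 and 228.6 CPM in kidney and 0.667, 1.44, 1.69 and 1.62 CPM in heart on high salt. No library came near the other tissue's range, and the log2 difference was 6.30 ± 0.34 SE (edgeR adjusted p = 5.44e-10) under TMM and 7.21 ± 0.36 under library totals. Heart high-salt replicate 2, which held the most principal cell and thick ascending limb transcripts in heart, read 1.44 CPM. The other heart libraries read 0.433 to 2.79 CPM. Without replicate 2, 5 of the 10 genes were called higher and 5 lower between tissues on high salt, as with it. The count in heart was 0 with and without it, as in every setting tried. Whether kidney transcripts have a part in the heart values was not tested. Hspa1a, its copy, read 356 to 825 CPM in the kidney libraries of the salt experiment and 10.7 to 29.2 CPM in heart, a smaller log2 difference of 4.10 ± 0.31 SE under TMM. The sum of both copies differed by 4.45 ± 0.31.

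Hsph1 read 51.5 to 90.8 CPM in the 4 heart high-salt libraries against 650.2 to 1233 CPM in kidney (log2 2.86 ± 0.23 SE under TMM, 3.77 ± 0.24 under library totals). Hspa4l read 26.4 to 45.4 CPM against 172 to 417 CPM (1.99 ± 0.21 under TMM and 2.90 ± 0.22 under library totals), and on low salt, where kidney had less, 0.84 ± 0.20 and 1.79 ± 0.21. Dnajb1 read 19.95 to 26.1 CPM in heart and 96.9 to 113 CPM in kidney (1.26 ± 0.09 and 2.17 ± 0.10). The order of the 4 salt groups was the same for Hspa4l and Hsph1, kidney high salt, kidney low salt and then the 2 heart groups, which overlapped.

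Cryab had the largest difference in favour of heart among the 10 genes, at 2118 to 2838 CPM on high salt against 1127 to 1341 CPM in kidney (log2 -1.999 ± 0.097 SE under TMM, -1.09 ± 0.09 under library totals). On low salt the differences were -2.57 ± 0.10 and -1.63 ± 0.10. Its neighbour Hspb2 read 139 to 154 CPM in heart and 27.8 to 43.9 CPM in kidney on high salt (-2.99 ± 0.13 under TMM). The order of the salt groups for Cryab was heart high and heart low salt, which overlapped, then kidney high and then kidney low salt.

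Hspd1 read 598 to 729 CPM in heart and 503 to 644 CPM in kidney on high salt, ranges that overlap (-1.15 ± 0.11 under TMM, -0.24 ± 0.10 under library totals, edgeR adjusted p = 0.0393). Hsp90aa1 read 239 to 331 CPM in heart and 719.5 to 921 CPM in kidney (0.54 ± 0.09 and 1.44 ± 0.10), and on low salt it was not called under TMM (0.10 ± 0.09, edgeR adjusted p = 0.300) but was under library totals (1.05 ± 0.09). Hspb1 overlapped between tissues at 195 to 218 and 157 to 291.5 CPM (-0.86 ± 0.12 and 0.05 ± 0.13), as did Hspa8 at 1135 to 1480.3 and 1115 to 1518 CPM (-0.91 ± 0.10 and -0.01 ± 0.10). Hsf1 read 30.1 to 37.1 CPM in heart and 40.2 to 53.2 CPM in kidney, lower in kidney under TMM (-0.48 ± 0.09, edgeR adjusted p = 0.000134) and higher under library totals (0.43 ± 0.09, adjusted p = 0.000475).

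**Figure D4:**
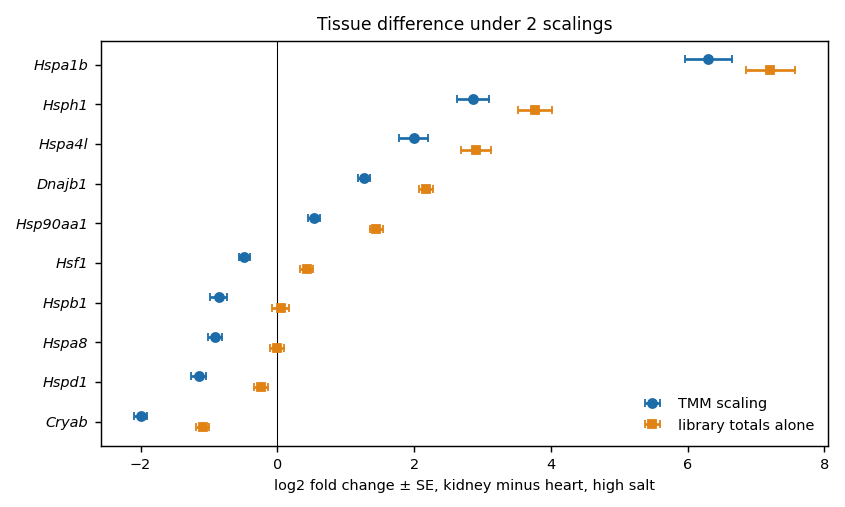
Log2 fold change with its standard error, kidney minus heart on high salt, for each chaperone gene under TMM scaling (circles) and under library totals alone (squares), 4 libraries a tissue. The squares lie about 0.93 to the right of the circles, and Hsf1 and Hspb1 change side.

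Relatives of the 10 genes separated the tissues as well. The other small heat shock genes summed to 3601 to 4243 CPM in heart and 61.3 to 88.4 CPM in kidney, and all 5 tested were lower in kidney on high salt. Hspb7, a cardiovascular small heat shock protein, averaged 1912 ± 124 CPM in heart and 7.43 ± 1.46 CPM in kidney, and Hspb3 averaged 51.6 ± 7.46 CPM in heart with 0 counts in the 4 kidney libraries, at least 2470-fold higher in heart (CPM, against a floor of 3 counts over the group). Unc45b, the myosin chaperone of striated muscle, averaged 240.5 ± 24.0 CPM in heart with 0 counts in kidney, at least 11500-fold higher in heart by the same floor, and its relative Unc45a was lower in heart (24.2 ± 1.96 against 141 ± 8.74 CPM). Hspa2, an HSP70 best known from the testis, read 674 ± 145 CPM in kidney and 2.51 ± 0.481 CPM in heart (log2 7.15 ± 0.18 SE under TMM), and Hspa1l 0.678 ± 0.117 and 8.80 ± 1.00 CPM (-4.59 ± 0.31).

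Among J-domain genes, Dnajb5 (8.46 ± 0.904 in kidney and 92.8 ± 10.3 CPM in heart) and Dnaja4 (86.3 ± 15.6 and 288 ± 13.4 CPM) were lower in kidney. Of the BAG genes, Bag3, which works with small heat shock proteins in muscle, averaged 29.1 ± 4.21 CPM in kidney and 242 ± 20.3 CPM in heart (log2 -3.97 ± 0.14 SE), and Bag2 17.1 ± 1.75 and 39.1 ± 2.39 CPM. The mitochondrial genes Clpx (69.8 ± 3.95 and 195 ± 26.4 CPM) and Dnaja3 (96.8 ± 7.09 and 209.9 ± 15.3 CPM) were lower in kidney, as was Hsf4, another heat shock factor (1.51 ± 0.732 and 11.6 ± 1.38 CPM). For Hsf2 (23.5 ± 4.76 and 21.1 ± 3.44 CPM), the TRiC subunits Cct2 (174 ± 8.92 and 171 ± 9.34 CPM) and Cct8 (171 ± 25.4 and 193 ± 20.3 CPM) and the endoplasmic reticulum genes Hspa5 (495 ± 39.0 and 625 ± 198 CPM) and Manf (49.1 ± 4.77 and 62.8 ± 5.45 CPM), which TMM called lower in kidney, the CPM of the tissues differ by less than the shift between scalings (SD, n = 4 in each).

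Across the 16 kidney libraries, after the mean of each table and batch was taken out, some of the genes varied together, without a sharp split. Hsph1 and Cryab had r of 0.68, while Hspb1 with Hsp90aa1 had 0.67, Dnajb1 with Hsph1 0.66 and Hsf1 with Hsph1 0.64. These are descriptions over libraries that share the treatment contrasts, and the treatment differences were not taken out. Pearson's r was 0.90 for Hspa4l with Cryab, 0.89 with Hspd1, 0.87 with Hsph1 and 0.78 with Hsp90aa1. Hspa8 had r between -0.37 and 0.37 with every other gene of the set. Hspa1b had r of 0.14 with Hspa4l, 0.07 with Cryab and -0.04 with Hspd1, and its highest, 0.66, was with Hsf1. In the 8 heart libraries, treated the same way, Hspa4l had r of 0.71 with Hspd1, 0.48 with Cryab and 0.23 with Hsph1.

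**Figure D5:**
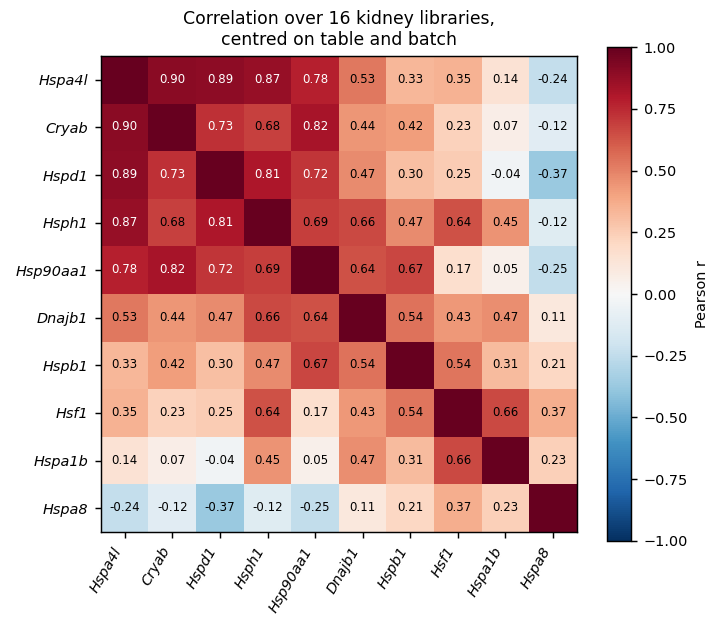
Pearson r between the log2 levels of the 10 chaperone genes over 16 kidney libraries, centred on table and batch. Hspa4l, Cryab, Hspd1, Hsph1 and Hsp90aa1 form the dark block with r from 0.68 to 0.90. Other pairs reach 0.67, and Hspa8 has r between -0.37 and 0.37 with every other gene.

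Among 11934 genes with a mean of at least 5 CPM in these 16 libraries, the 5 whose centred level was most like that of Hspa4l were Nupr1 (r = 0.97), Sla (0.96), Prss35 (0.96), Tram1 (0.96) and Slc17a5 (0.95). Of the tonicity genes only Slc6a12 and Akr1b1, picked by hand, were ranked. Slc6a12 ranked 7 with r of 0.95 and Akr1b1 24 with 0.93. Nfat5, Slc5a3 and Slc6a6 were not ranked. The kidney salt differences of Nfat5 and Slc6a6 had the opposite sign to that of Hspa4l, so these ranks do not describe the tonicity genes as a group. The 5 most like Hsph1 were Mcm3ap (0.98), Eaf1 (0.98), Cept1, Zbtb38 and Etf1 (0.97 each), and the 5 most like Cryab were Chst9 (0.94), Get1 (0.93), Hnrnpa2b1, Tspan2 and Chn2 (0.92 each). In the kidney salt response, Sla (log2 -2.09, edgeR adjusted p = 0.0406), Prss35 (-2.39, 0.0380), Slc17a5 (-0.65, 0.0338), Cept1 (-0.57, 0.0446), Chst9 (-0.72, 0.0163), Tspan2 (-1.01, 0.0209) and Chn2 (-0.50, 0.0450) were called lower on low salt, from the same libraries that gave the likeness.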

How the data were processed

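RNA from 24 tissue pieces was sequenced as stranded mRNA libraries, single-end with 50 cycles, per the labels' protocols. The deposited values are expected counts per gene in 3 tables (aldosterone experiment, kidney salt, heart salt), and the tools listed, without roles, are Salmon, Trimmomatic, MultiQC and bcl2fastq 2.19, per the submitters' processing notes. The build, annotation and use of strand in counting are not given there. The labels do not say whether a kidney and a heart came from 1 animal, and p-values measure only the spread between these samples.

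Expected counts were rounded and tested with edgeR 4.0.16 in R 4.3.3 (quasi-likelihood F test, filterByExpr at a minimum count of 10, TMM scaling, the labels' batch as a term, Benjamini-Hochberg adjustment over all genes tested, threshold 0.05). Tissue and interaction fits joined 16 libraries. DESeq2 1.42.0 was the alternative tool, beside other scalings, filters, no batch term, a replicate block and leaving out each library; library totals, Hspa1a and Hspa1b summed and single batches were added after the data were seen. Levels are CPM of the library total and log2 fold changes come from the fits. Correlations used log2(CPM + 1). The fits were tested on simulated data. Total counts were 24299423 to 38318764 per library, and all 36 replicate pairs within groups differed beyond sampling noise.

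Same-numbered heart libraries deviated together (r of 0.20, 0.17, 0.22 and 0.13), but not once batch, which the numbers follow, was taken out (-0.00 and -0.05). The replicate block changed no call of the 10 genes in heart.

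The 10 genes and all gene lists were chosen with earlier results of these data known. Other genes are named by a rule: from 9 lists, up to 6 per direction past the threshold, or the 2 with the smallest p where none passed, and in the tissue comparison the 2 largest differences per list, plus Hspb2, Hspe1 and Hspa1a. Promoter sequences are from RefSeq (GRCr8).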

Additional observations from a re-analysis of the deposited data

Results flagged for a closer look

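Among 60 groups of 4 libraries (10 genes in 6 groups), 2 held a library far from the other 3 by Dixon's criterion, where chance gives about 1 in 20. Hsp90aa1 read 1109 CPM in control replicate 3, and the next highest control library read 924 CPM. Hspd1 read 605.7 CPM in aldosterone replicate 2, and the next highest aldosterone library read 529 CPM.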

How the results depend on the processing

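Of the 10 genes, 2 were called between diets in kidney, and this count was 5 with DESeq2, 1 without a batch term, 0 with the replicate block, 0 in batch 1 alone, 0 in batch 2 alone and 0 to 2 with 1 library left out (0 without high-salt replicate 2 or 3 or low-salt replicate 3 or 4). With the block, Hspa4l had a log2 fold change of -1.35 (edgeR adjusted p = 0.0532) and Cryab of -0.61 (adjusted p = 0.0573); without a batch term the adjusted p of Hspa4l was 0.0554. Over all genes the kidney calls were 201 higher and 253 lower, 823 and 872 with DESeq2, 80 and 85 without a batch term and 30 and 22 with the block. Batch 1 alone called 0 of all genes, so its count of 0 of the 10 is not particular to them. Batch 2 alone called 204 and 36. With 1 library left out the calls ranged from 2 and 0 (without low-salt replicate 3) to 295 and 128 (without low-salt replicate 1). Same-numbered kidney libraries of the salt experiment had r of -0.04, 0.31, -0.04 and -0.02 (0.15 and -0.16 with batch taken out). In the aldosterone experiment r was 0.11, 0.22, -0.03 and 0.40 (0.09 and 0.14 with batch taken out). Before batch was taken out the sign differed between numbers in both, although the only negative value in the aldosterone experiment was -0.03. With batch taken out, both values of the aldosterone experiment were positive. Whether the numbers pair the libraries is therefore not settled, and the block is given beside the main fit. In both experiments the block lowered the standard error of some genes, such as Hsph1, and raised that of others, such as Hspb1. The block left 0 of the 10 genes called in the other treatment comparisons and both response differences, and changed no other call. DESeq2 called 1 gene lower under aldosterone (0.419% of all genes), 3 more negative in kidney in the salt response between tissues (2.49%; 0 to 1 with 1 library left out in edgeR) and 2 more negative in salt against aldosterone (1.96%).

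Some differences changed sign with the setting. In batch 1 alone these were Hspd1 under aldosterone (-0.0213), Hspa8 in kidney (-0.000547), and Cryab (0.0507) and Hspd1 (0.11) in heart. In batch 2 alone they were Hspa8 under aldosterone (-0.0262), Hspa1b (-0.15) and Hspb1 (0.0563) in kidney, and Hsph1 (-0.37), Hspa8 (-0.23) and Hsf1 (-0.0676) in heart. Library totals reversed Hspa8 in heart (-0.0155), Hspb1 (0.0479) and Hsf1 (0.43) between tissues on high salt, and Hspa8 (0.0353) and Hsf1 (0.28) on low salt. These tissue differences were not small under TMM, and all were called there. They were -0.86 for Hspb1 and -0.48 for Hsf1 on high salt, and -0.91 for Hspa8 and -0.67 for Hsf1 on low salt. Hsf1 was called in opposite directions under TMM and library totals on both diets. For the salt response between tissues Hspa8 was -0.00949 with DESeq2, -0.00950 with its size factors and -0.000301 without a batch term. Leaving out 1 library gave ranges across 0 for Hspa8 (-0.0263 to 0.126) and Hspd1 (-0.0656 to 0.111) under aldosterone, Hspa8 in kidney (-0.0457 to 0.0629), Hsph1 (-0.0742 to 0.175), Hspa1b (-0.40 to 0.61), Hspa8 (-0.0543 to 0.102), Cryab (-0.0999 to 0.0749) and Hspd1 (-0.0792 to 0.0193) in heart, Hspa1b (-0.52 to 0.36) and Hspa8 (-0.0889 to 0.0579) in the salt response between tissues, and Hspa8 (-0.0952 to 0.0517), Dnajb1 (-0.00660 to 0.107) and Hsf1 (-0.00376 to 0.158) in salt against aldosterone. The cause was not tested. Depth limits Hspa1b in heart alone among the 10 genes.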
